A study of Saccharomyces cerevisiae with 16 samples.

Results

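Budding yeast can live on allantoin, a breakdown product of purines, and on urea as sources of nitrogen, and the 8 genes DAL1, DAL2, DAL3, DAL4, DAL5, DAL7, DUR1,2 and DUR3 encode the permeases and enzymes that do this. They were taken by name from a table of RNAseq and Riboseq counts for 6692 genes, and all 8 were found in it. Dal4 brings in allantoin, Dal5 brings in allantoate and Dur3 brings in urea against its gradient. Dal1 (allantoinase) opens the ring of allantoin to give allantoate, Dal2 (allantoicase) splits allantoate into ureidoglycolate and urea, and Dal3 (ureidoglycolate lyase) releases a further urea and glyoxylate. Dur1,2 (urea amidolyase) turns urea into ammonia and carbon dioxide by way of allophanate, and Dal7 is a malate synthase that can use the glyoxylate. The genes are held low by good nitrogen sources such as ammonium, through the GATA factors Gln3, Gat1, Dal80 and Gzf3, and most of them are induced by allophanate, itself a product of urea, through Dal81 and Dal82.

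Ribosome-protected footprints (Riboseq) and RNA fragments (RNAseq) were counted in 4 groups of 2 cultures each, WT and ∆ntd cells in synthetic dextrose medium (SD) or in SD with 3% urea. WT is labelled BY4741 and ∆ntd is labelled as a tif3∆ntd strain, lacking the N-terminal domain of the translation initiation factor eIF4B, which is the product of TIF3. Both are the same haploid MATa strain with TIF3 deleted, carrying a single-copy plasmid with His-tagged TIF3 or its truncated form under the native promoter. That plasmid also carries HIS3, LEU2, URA3 and MET15, so that all groups grow without added amino acids. All cultures had 5 g/L ammonium sulfate, grew at 30°C and were harvested at an optical density of 0.8, so urea was added to a medium that already held ammonium.

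Each culture gave 1 RNAseq and 1 Riboseq library from the same extract, 16 in all. RNAseq libraries held 1888481 to 5169546 counts and Riboseq libraries 3067506 to 17380262, with the shallowest Riboseq libraries in WT with urea. The Riboseq libraries of ∆ntd with urea stood apart, since the log2 difference between the 2 cultures had an SD of 0.506 across genes, against 0.161 to 0.271 in the other Riboseq groups and 0.213 to 0.269 in RNAseq. RNA of TIF3 was present in every library at 1950 to 3288 CPM (counts relative to library size, with the totals adjusted by edgeR's TMM factors), which checks neither strain label, since the part of each transcript that was counted is not known. The 6 a-specific genes summed to 1840 to 2710 CPM of RNA and the 4 alpha-specific genes to 18.5 to 31.6. With 2 cultures against 2, permuting cultures exactly can reach no p below 0.333. The tests are therefore edgeR's quasi-likelihood F test fitted across all genes, with Benjamini-Hochberg adjusted p-values and a threshold of 0.05. The spread of a gene was estimated once for all groups of a fit. SEs and p-values for footprints in ∆ntd with urea therefore do not measure the wider spread of that group.

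Of the 8 genes, 5 lie side by side on chromosome IX (R64 build). These are DAL1 (406260 to 407642, minus strand), DAL4 (408468 to 410375, plus strand), DAL2 (410807 to 411838, plus strand), DAL7 (413015 to 414679, minus strand) and DAL3 (415030 to 415617, minus strand). A sixth gene of the cluster, DCG1, lies between DAL2 and DAL7. DUR1,2 is on chromosome II (636703 to 642210, minus strand), DAL5 on chromosome X (719666 to 721297, plus strand) and DUR3 on chromosome VIII (72037 to 74244, minus strand). Each is a single coding exon, and none shares an exact stretch of 28 nt with another coding sequence. Shorter reads, alignments with mismatches and untranslated regions were not checked, so some reads may still have been lost under unique mapping.

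The 500 bases before each start codon were searched on both strands for GATAAG, the core of the sites that GATA factors bind, and for AAANNTGCG, the core letters of the element bound by Dal82. The motifs can share at most 1 end letter with each other, as can neighbouring matches of GATAAG. At least 1 GATAAG was found before all 8 genes, against 22.8% of 5986 promoters of the same length, and at least 2 before 7 of the 8, against 3.64%. DAL3 had 5, DAL4 had 4, DAL1, DAL5, DAL7 and DUR1,2 had 3 each, DAL2 had 2 and DUR3 had 1. DAL1 and DAL4 are divergent genes with 825 bases between them, and 3 of the matches are the same letters counted for both. AAANNTGCG was found before 5 of the 8 genes, against 7.42% of promoters. DAL7 and DUR3 had 2 matches each, against 0.267% of promoters with at least 2, and DUR1,2, DAL1 and DAL2 had 1 each, while these letters were not in the windows of DAL3, DAL4 and DAL5. A match is a string of letters and does not show that a factor binds there.

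One stretch with AAANNTGCG is shown for each gene that has it, read along the gene's own strand, with the motif in capitals, because the presence of these letters differs among the members. The 5 genes with them are the 3 whose RNA rose with urea (DUR1,2, DUR3 and DAL7) and also DAL2, which fell in both strains, and DAL1, which was not called in WT and fell in ∆ntd. The 3 genes without them fell in RNA with urea in both strains. For the Dal82 element the stretches are chrIX:414887-414916 (minus strand) for DAL7, chrVIII:74578-74607 (minus strand) for DUR3, where the capitals are the motif on the other strand, chrII:642632-642661 (minus strand) for DUR1,2, chrIX:407833-407862 (minus strand) for DAL1 and chrIX:410548-410577 (plus strand) for DAL2.
DAL7: cggattttggAAAATTGCGtttgcttttct
DUR3: aatgaggcggCGCACATTTgggtgttatct
DUR1,2: ccctaccgagAAATGTGCGtttatagtttg
DAL1: gaagtggttcAAAATTGCGgtgcttaatta
DAL2: tcaacctaccAAACTTGCGcttgtttgagc

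GATAAG is shown for the 3 genes without the Dal82 letters, from chrX:719307-719336 (plus strand) for DAL5, chrIX:415731-415760 (minus strand) for DAL3 and chrIX:408205-408234 (plus strand) for DAL4, and for DUR1,2 from chrII:642517-642546 (minus strand).
DAL5: ttgttccttttcGATAAGagtccctcgcgt
DAL3: taaatggggaaaGATAAGcgaggtaagact
DAL4: tgctgtcacgtcGATAAGgttcctttaaaa
DUR1,2: gcaagccattgaGATAAGacacgcagatgt

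The first comparison asks how the pathway answers to urea in WT. RNA of the urea permease DUR3, of urea amidolyase DUR1,2 and of the malate synthase DAL7 rose, by 4.21-fold, 4.10-fold and 1.93-fold. RNA of the allantoate permease DAL5 fell 15.2-fold, and that of DAL3, DAL2 and DAL4 fell 5.04-fold, 3.17-fold and 2.41-fold. Thus 3 of the 8 genes rose, 4 fell and DAL1 did not pass the test, where 28.5% of 5486 genes were called, 16.1% higher and 12.4% lower. The median log2 change of the 8 was -0.69 and that of all genes 0.00. In cultures these are means over all cells, so fewer expressing cells and less RNA per cell cannot be told apart.

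DUR1,2 was the most abundant RNA of the pathway in every group. Its RNA stood at 1459 and 1424 CPM in WT in SD and at 5863 and 5955 with urea (TMM-scaled throughout). The 2 cultures of a group differed by far less than the groups, and the log2 change was 2.04 ± 0.06 (SE, adjusted p = 1.08e-23). DUR3, which supplies the enzyme with its substrate, went from 69.0 and 65.7 CPM of RNA to 275.1 and 291.8. Its log2 change of 2.08 ± 0.09 (adjusted p = 1.56e-18) and that of DUR1,2 ranked 12 and 13 from the top among the 5486 genes.

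DAL7 went from 304.3 and 307.0 CPM of RNA in SD to 580.5 and 599.3 with urea. This was a smaller rise than that of the DUR genes, with a log2 change of 0.95 ± 0.06 (adjusted p = 1.86e-13), and again no culture with urea overlapped one without. The other malate synthase gene, MLS1, had at most 17 RNA counts in any library, against at least 422 for DAL7, and the 2 share no 28-nt stretch. The uracil permease gene FUR4 (log2 change 0.01) and the uridine permease gene FUI1 (0.09), relatives of DAL4, did not pass in WT, while FUI1 rose in ∆ntd (0.55, adjusted p = 2.27e-06).

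DAL5 had the deepest fall. Its RNA was at 316.1 and 325.0 CPM in WT in SD, above every other member but DUR1,2 when set per kilobase, and at 23.9 and 19.0 with urea, from 71 and 84 reads. The log2 change was -3.93 ± 0.11 (adjusted p = 1.08e-23), and only 4 of the 5486 genes fell further. The allantoin permease DAL4 was the least abundant RNA of the pathway. It went from 22.9 and 26.3 CPM to 10.8 and 9.71 with urea (log2 change -1.27 ± 0.23, adjusted p = 6.46e-05).

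The 3 enzymes that take allantoin to urea did not move alike. RNA of DAL1, the first step, was 32.8 and 26.0 CPM in SD and 27.3 and 27.6 with urea, and these ranges overlap (log2 change -0.10 ± 0.19, adjusted p = 0.742). RNA of DAL2, the next step, was 81.4 and 73.3 in SD and 24.6 and 24.2 with urea (log2 change -1.67 ± 0.14, adjusted p = 7.74e-11). RNA of DAL3, the last step, was 92.9 and 100.3 in SD and 20.6 and 18.1 with urea (log2 change -2.33 ± 0.13, adjusted p = 4.07e-15). These 7 calls held in every other setting in which the gene was tested, and DAL4 was left out where each library had to hold 10 counts or more.

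**Figure D1:**
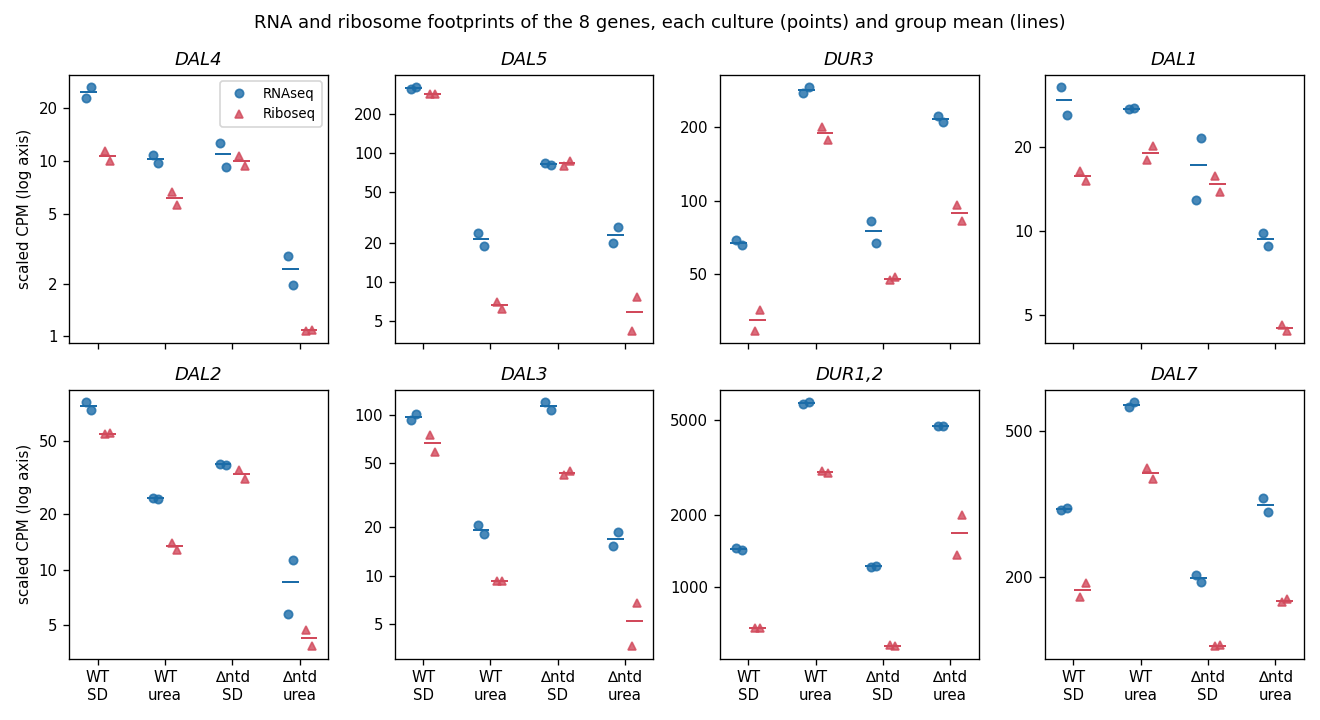
RNAseq (blue circles) and Riboseq (red triangles) levels of the 8 genes in CPM on a log axis, for WT and ∆ntd in SD and with urea. Points are the 2 cultures of a group and lines are their mean. DUR1,2, DUR3 and DAL7 stand higher with urea in both strains, DAL5, DAL2, DAL3 and DAL4 stand lower, and DAL1 with urea lies below SD in both assays, without overlap, only in ∆ntd.

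As a share of all RNA counts, the 8 genes together made up 0.221% ± 0.00424 (SD, n = 2) in WT in SD and 0.595% in both WT cultures with urea. DUR1,2 alone gave 61.0% ± 0.424 of the pathway's RNA counts in SD and 85.8% ± 0.141 with urea. Per kilobase of coding sequence, the RNA order in WT in SD was DUR1,2 (261.7 ± 4.40 CPM per kilobase, SD, n = 2), DAL5 (196.4 ± 3.83), DAL7 (183.6 ± 1.11), DAL3 (164.3 ± 8.97), DAL2 (75.0 ± 5.54), DUR3 (30.5 ± 1.07), DAL1 (21.2 ± 3.46) and DAL4 (12.9 ± 1.27). With urea it was DUR1,2 (1073 ± 11.7), DAL7 (354.3 ± 7.99), DUR3 (128.4 ± 5.37), DAL3 (32.9 ± 3.00), DAL2 (23.6 ± 0.30), DAL1 (19.8 ± 0.13), DAL5 (13.2 ± 2.15) and DAL4 (5.37 ± 0.398). No neighbours overlapped in either order, and DAL5 passed from the second place to the seventh.

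Footprints in WT moved the same way as RNA in each of the 7 genes that were called. DUR1,2, DUR3 and DAL7 rose and DAL2, DAL3, DAL4 and DAL5 fell, where 9.21% of 5286 genes were called, 4.73% higher and 4.48% lower. Footprints on DUR1,2 went from 671.7 and 675.1 CPM to 3073 and 3013 (log2 change 2.18 ± 0.17, adjusted p = 0.000348). Those on DUR3 went from 29.2 and 35.6 to 200.2 and 177.8 (2.55 ± 0.14, adjusted p = 3.73e-05). The increases were thus at least as large in footprints as in RNA for both DUR genes.

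Footprints on DAL5 went from 286.1 and 287.7 CPM in WT in SD to 7.02 and 6.27 with urea. This is a fall of 42.7-fold (log2 change -5.42 ± 0.23, adjusted p = 1.22e-05), and the values with urea rest on 34 and 19 footprints. Footprints on DAL3 fell 7.19-fold, from 74.5 and 58.9 to 9.29 and 9.23, and those on DAL2 fell 4.05-fold, from 54.3 and 55.3 to 14.0 and 12.9. DAL4 was called at an adjusted p of 0.0472, with 11.4 and 10.0 CPM in SD and 6.61 and 5.61 with urea. That call was lost in 10 of 15 other settings, among them DESeq2, the replicate block and each of the 6 fits without a culture of WT or of ∆ntd in SD. DAL1 footprints were 16.4 and 15.2 in SD and 18.0 and 20.1 with urea (log2 change 0.26 ± 0.15, adjusted p = 0.355).

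The same question in ∆ntd gave calls for all 8 genes. DUR1,2, DUR3 and DAL7 rose in RNA, by 3.87-fold, 2.87-fold and 1.59-fold, and the other 5 genes fell, where 26.2% of genes were called, 13.4% higher and 12.8% lower. DAL3 fell 6.75-fold, DAL2 4.49-fold, DAL4 4.42-fold, DAL5 3.56-fold and DAL1 1.78-fold. The call for DAL1 (adjusted p = 0.0347) was lost in 5 of 16 settings, including DESeq2 and the fits without either ∆ntd culture with urea, and the other 7 calls held wherever the gene was tested.

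DUR1,2 RNA in ∆ntd went from 1219 and 1226 CPM in SD to 4709 and 4745 with urea (log2 change 1.95 ± 0.06, adjusted p = 1.27e-22). DUR3 RNA went from 82.7 and 66.9 to 222.8 and 210.0 (1.52 ± 0.10, adjusted p = 1.02e-13). DAL7 RNA went from 201.7 and 193.5 to 328.1 and 299.2 (0.67 ± 0.08, adjusted p = 3.74e-08). None of the 3 overlapped between SD and urea.

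DAL5 RNA in ∆ntd started from a lower level than in WT, 83.8 and 80.7 CPM, and reached 20.2 and 26.6 with urea (log2 change -1.83 ± 0.15, adjusted p = 4.71e-11). With urea its level was thus close to that of WT, and the 2 strains' ranges overlapped. DAL3 RNA went from 119.7 and 106.8 to 15.2 and 18.7, and DAL2 RNA from 37.8 and 37.1 to 5.76 and 11.3, the latter from 14 and 23 reads. DAL4 RNA went from 12.6 and 9.17 to 2.88 and 1.97, which is 7 and 4 reads, so its size of change is known only roughly (-2.15 ± 0.43).

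Footprints in ∆ntd also rose for DUR1,2, DUR3 and DAL7 and fell for the other 5 genes, where 28.4% of genes were called, 16.9% higher and 11.5% lower. Footprints on DUR1,2 were 571.6 and 564.9 CPM in SD and 1363 and 2014 with urea. The 2 urea cultures were further apart than any other pair for this gene, but both lay above SD (log2 change 1.57 ± 0.17, adjusted p = 0.00108). That SE rests on a spread shared by all groups, and with each culture left out in turn the change ranged from 1.26 to 1.83. Footprints on DUR3 went from 47.5 and 48.5 to 95.9 and 82.9 (0.90 ± 0.14, adjusted p = 0.00417), a call lost in 4 of 16 settings. Those on DAL7 went from 128.9 and 130.0 to 170.3 and 173.5 (0.41 ± 0.10, adjusted p = 0.0190), a call lost in 5 of 16 settings. When only library totals were used for scaling, that change was -0.03, against a median of -0.42 for all genes. With that scaling 1 of the 8 genes was called higher (DUR1,2) and 5 lower, where 320 of 5286 genes were called higher and 2080 lower.

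The falls in footprints were deep in ∆ntd. DAL5 fell 14.7-fold, from 79.7 and 86.7 CPM to 4.18 and 7.66, DAL4 fell 9.09-fold, and DAL3 fell 8.79-fold, from 42.4 and 44.4 to 3.64 and 6.75. DAL2 fell 7.54-fold and DAL1 3.26-fold. DAL4 had 111 and 131 footprints in SD and 10 and 6 with urea. These 5 calls held in every setting in which the gene was tested.

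**Figure D2:**
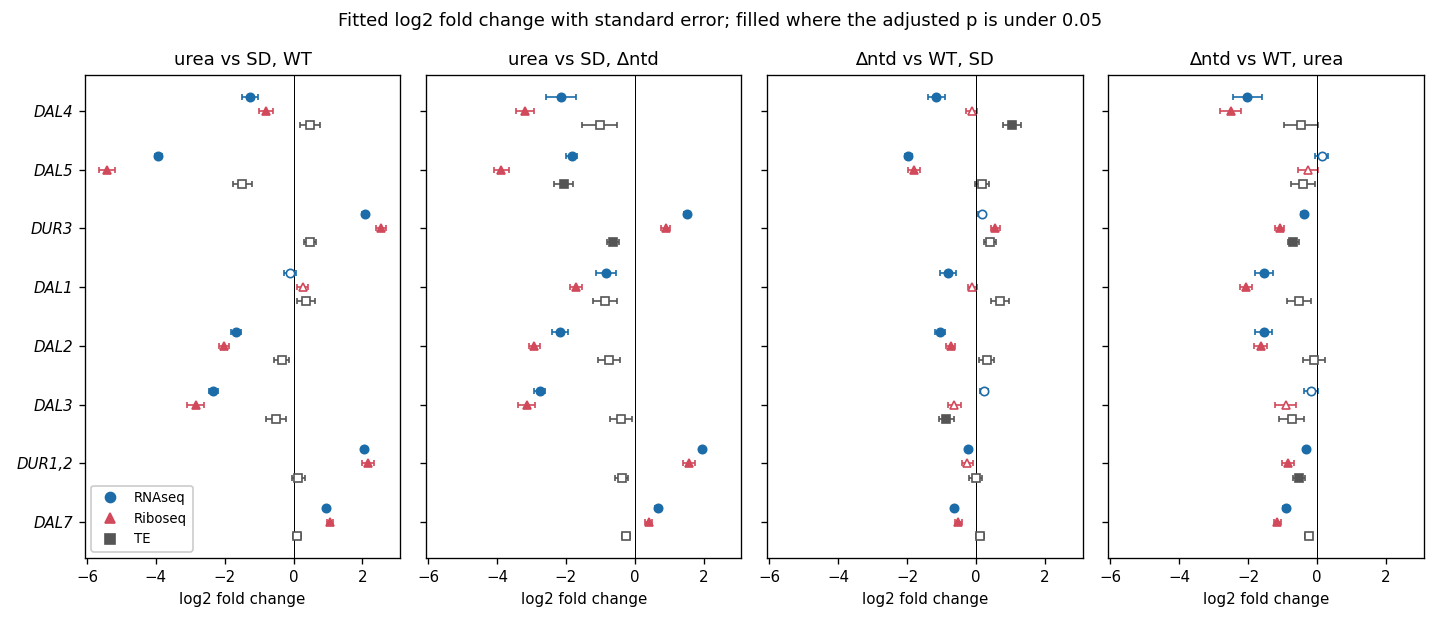
Fitted log2 fold changes of the 8 genes with their standard errors, for urea against SD in WT and in ∆ntd and for ∆ntd against WT in SD and with urea. Blue circles are RNAseq, red triangles Riboseq and grey squares TE, filled where the adjusted p is under 0.05. DUR1,2, DUR3 and DAL7 lie right of 0 in RNAseq and Riboseq in both urea panels, and DAL5 has the lowest values there in Riboseq, -5.42 in WT and -3.88 in ∆ntd.

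The responses of the strains were compared by the difference between them (the ∆ntd response minus the WT response). In RNA, 2 of the 8 genes were called, DAL5 at a log2 difference of 2.10 ± 0.22 (adjusted p = 2.73e-08) and DUR3 at -0.56 ± 0.14 (adjusted p = 0.00761), where 10.4% of genes were called, 4.37% higher and 6.07% lower. For DAL5 the fall was smaller in ∆ntd, which began lower, and for DUR3 the rise was smaller. The DUR3 call was lost with DESeq2, without 1 WT culture in SD (replicate 2) and without 1 ∆ntd culture in SD (replicate 1), while that of DAL5 held in all 15 settings. The response of DUR1,2 RNA differed by -0.08 ± 0.08 (adjusted p = 0.583).

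In footprints 6 of the 8 genes were called for this difference, where 8.36% of genes were called, 4.92% higher and 3.44% lower. The differences were 1.54 ± 0.33 for DAL5, -2.39 ± 0.34 for DAL4, -1.97 ± 0.23 for DAL1, -1.65 ± 0.19 for DUR3, -0.90 ± 0.22 for DAL2 and -0.65 ± 0.14 for DAL7. The adjusted p-values ran from 0.00799 for DUR3 to 0.0469 for DAL2. With a replicate block 3 were called. Leaving out a culture of WT, or of ∆ntd in SD, lost most or all of the 6 calls. Leaving out a culture of ∆ntd with urea lost none of the 6. The number of all genes called for this difference also moved widely with the culture left out. With each culture left out in turn the differences ranged from -2.06 to -1.87 for DAL1, from -2.49 to -2.25 for DAL4, from -1.80 to -1.51 for DUR3, from -1.08 to -0.79 for DAL2, from -0.71 to -0.58 for DAL7 and from 1.09 to 1.97 for DAL5.

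The other comparison asks what loss of the N-terminal domain did in the same medium. In SD, RNA of 6 of the 8 genes was lower in ∆ntd, where 36.8% of genes were called, 19.3% lower. DAL5 was 3.89-fold lower (316.1 and 325.0 against 83.8 and 80.7 CPM, log2 change -1.96 ± 0.09, adjusted p = 2.55e-17). DAL4, DAL2, DAL1 and DAL7 were 2.22-fold, 2.06-fold, 1.75-fold and 1.54-fold lower, and DUR1,2 was 1.18-fold lower. The DAL1 call was lost without WT replicate 1 or ∆ntd replicate 1 in SD. DAL3 (log2 change 0.24 ± 0.11, adjusted p = 0.0770) and DUR3 (0.17 ± 0.11, adjusted p = 0.272) did not pass.

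Scaling matters for the small changes here. With library totals in place of TMM factors, the median of all genes moved by 0.28 in SD and by 0.33 with urea on the log2 scale. DUR1,2 was then at 0.05 in SD and 0.00 with urea, neither of them called, against medians of all genes of 0.31 and 0.35. With that scaling 2 of the 8 genes were called higher in ∆ntd in SD (DAL3 and DUR3) and 5 lower, and with urea 1 higher (DAL5) and 4 lower. Of 5486 genes, 2550 were then called higher and 431 lower in SD, and 2760 higher and 519 lower with urea. In footprints in SD, DAL5 (3.45-fold), DAL2 (1.67-fold) and DAL7 (1.42-fold) were lower in ∆ntd and DUR3 was higher (1.48-fold), where 9.21% of genes were called, 3.67% higher and 5.54% lower. The calls for DAL2, DAL7 and DUR3 were each lost in at least 4 of 16 settings, and that for DAL5 in none. Scaling by library totals left 2 lower and 0 higher, where 224 of 5286 genes were called lower and 216 higher.

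With urea, RNA of 6 of the 8 genes was lower in ∆ntd, where 43.9% of genes were called, so lower RNA is itself common in this comparison (22.5% of all genes). DAL4 was 4.07-fold lower, at 2.88 and 1.97 against 10.8 and 9.71 CPM. DAL2 was 2.92-fold lower and DAL1 2.91-fold lower, DAL7 1.88-fold, DUR3 1.31-fold and DUR1,2 1.25-fold. The calls for DUR3 and DUR1,2 depend on the scaling, since with library totals their log2 changes were -0.07 and 0.00, neither of them called. DAL5 (log2 change 0.14 ± 0.19, adjusted p = 0.586) and DAL3 (-0.18 ± 0.21, adjusted p = 0.504) did not pass, and for both the ranges of the 2 strains overlapped.

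Footprints with urea were lower in ∆ntd for 6 of the 8 genes, where 32.9% of genes were called, 15.1% lower. DAL4 was 5.67-fold lower, DAL1 4.18-fold, DAL2 3.10-fold, DAL7 2.23-fold, DUR3 2.11-fold and DUR1,2 1.80-fold. For the uptake and breakdown of urea itself this meant 1363 and 2014 CPM on DUR1,2 in ∆ntd against 3073 and 3013 in WT, and 95.9 and 82.9 on DUR3 against 200.2 and 177.8. The call for DUR1,2 was lost without WT replicate 1 with urea. Over all 8 genes, 0.366% ± 0.0127 (SD, n = 2) of footprints in WT with urea fell on the pathway, and 0.161% ± 0.0184 in ∆ntd with urea. In SD these shares were 0.144% ± 0.00636 and 0.104%. They are shares of raw library totals, without TMM factors. The pathway's RNA shares were 0.595% in WT and 0.575% ± 0.00424 in ∆ntd with urea, and 0.221% and 0.201% in SD. On raw totals the median log2 change of all genes between strains with urea was itself -0.25 in footprints and 0.35 in RNA. DUR1,2 alone gave 82.9% ± 0.566 of the pathway's footprints in WT with urea and 85.2% ± 3.61 in ∆ntd with urea.

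Translation efficiency (TE) was taken as footprints over RNA, each in scaled CPM of the same culture. The median of 5251 genes was 0.587 in WT in SD, 0.568 in WT with urea, 0.574 in ∆ntd in SD and 0.577 in ∆ntd with urea, and the 8 genes lay on both sides of it. Each assay was scaled on its own, which holds these medians close, so they do not show whether translation as a whole changed. With library totals the median log2 TE change of all genes was -0.55 in ∆ntd against WT with urea. DAL5 was the member whose TE moved most. It was 0.905 and 0.885 in WT in SD and 0.293 and 0.330 with urea, and 0.951 and 1.07 in ∆ntd in SD and 0.207 and 0.288 with urea. In SD 77.8% of genes in WT and 81.9% in ∆ntd had a lower TE than DAL5, and with urea 15.7% and 15.8% did.

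The fall in TE of DAL5 in ∆ntd was 4.19-fold (log2 change -2.07 ± 0.28, adjusted p = 0.00114), and it held in 15 of 16 settings (adjusted p = 0.0537 when fitted with the compared groups alone). In WT it was 2.81-fold (-1.49 ± 0.27) and missed the threshold at an adjusted p of 0.0532, with 8 of 16 settings passing, among them DESeq2 and the fit with the culture as a replicate block (adjusted p = 0.0226). The difference between the strains was -0.57 ± 0.40 (adjusted p = 0.460). In WT, no member passed for TE in response to urea in edgeR, where 0.133% of genes were called, and 2 had an unadjusted p under 0.05. With DESeq2 1 member passed and with voom 2. Settings other than leaving out a culture called from 4 to 310 of all genes, so 0.133% is not the share for DESeq2 or voom.

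DUR3 was the other gene called for TE in ∆ntd with urea, where 11.6% of genes were called, 4.27% lower. Its TE was 0.575 and 0.725 in ∆ntd in SD and 0.430 and 0.395 with urea (log2 change -0.63 ± 0.17, adjusted p = 0.0352), a call lost in 8 of 16 settings. In WT it was 0.423 and 0.543 in SD and 0.728 and 0.609 with urea (0.47 ± 0.17, adjusted p = 0.354). The difference between the strains, -1.10 ± 0.24, missed the threshold (adjusted p = 0.0578). None of the 8 genes passed for that difference in edgeR, where 0.609% of genes were called, and 4 had an unadjusted p under 0.05. DESeq2 and voom called 1 member each. Settings other than leaving out a culture called from 0 to 221 of all genes, so 0.609% is not the share for DESeq2 or voom.

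Between strains with urea, TE of DUR3 was 1.61-fold lower in ∆ntd (-0.69 ± 0.17, adjusted p = 0.00770) and TE of DUR1,2 was 1.44-fold lower (-0.53 ± 0.18, adjusted p = 0.0449), where 25.4% of genes were called, 10.1% lower. TE of DUR1,2 was 0.524 and 0.506 in WT with urea and 0.290 and 0.425 in ∆ntd with urea, and that call was lost in 7 of 16 settings, while the DUR3 call was lost without WT replicate 1 with urea. In SD, TE of DAL4 was 2.06-fold higher in ∆ntd (0.498 and 0.381 in WT, 0.842 and 1.02 in ∆ntd, adjusted p = 0.0326) and TE of DAL3 was 1.81-fold lower (0.802 and 0.587 in WT, 0.354 and 0.416 in ∆ntd, adjusted p = 0.0356), where 6.49% of genes were called, 3.2% higher and 3.29% lower. The DAL4 call was lost in 9 of 15 settings, the block included, and that of DAL3 in 6 of 16. TE of DAL7 stayed between 0.519 and 0.680 in all 8 cultures.

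**Figure D3:**
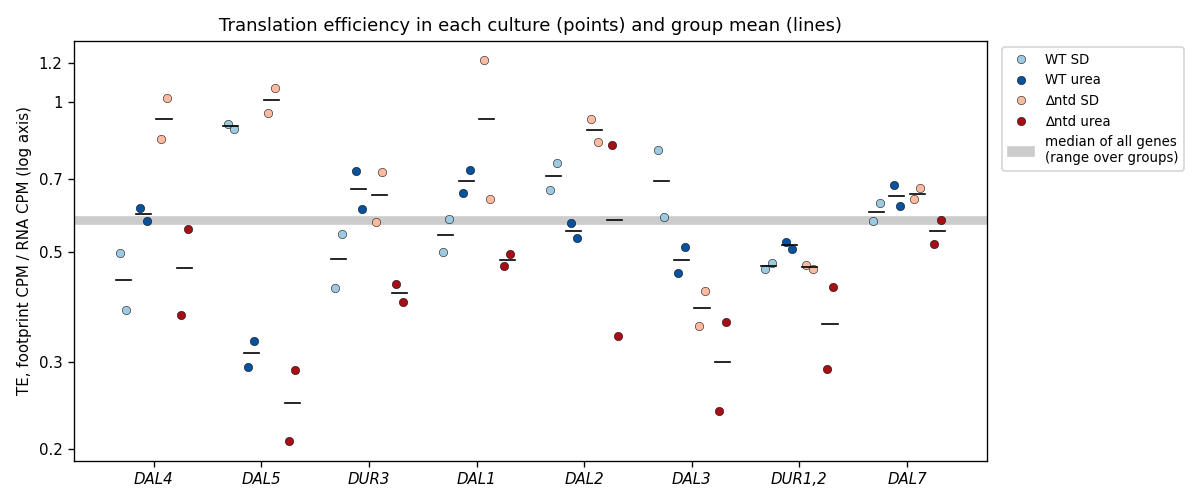
Translation efficiency of the 8 genes, footprint over RNA CPM, on a log axis, for WT and ∆ntd in SD and with urea. Points are cultures, black lines group means, and the grey band the range of the 4 group medians over all genes, 0.568 to 0.587. DAL5 lies above the band in SD (0.885 to 1.07) and below it with urea (0.207 to 0.330) in both strains.

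Along the chromosome IX cluster DAL7 was the one gene whose RNA rose with urea, in both strains. DAL3 on one side of it fell, and DCG1 on the other, a gene of no known role, did not pass in RNA, where WT gave a log2 change of -0.40 (adjusted p = 0.215) and ∆ntd one of -0.47 (adjusted p = 0.305). Footprints on DCG1 fell in ∆ntd (-1.17, adjusted p = 0.00346). DAL1 and DAL4, which share their upstream region, had RNA levels that followed each other across the 8 libraries (r = 0.823, a description), though only DAL4 was called in WT. This was not particular to the pair, since DAL4 followed DAL2 more closely (r = 0.938) and DAL1 and DAL2 had r = 0.754. Of the 3 genes before the cluster, INA22, MND2 and YVH1, the RNA of YVH1 rose in ∆ntd (0.50 ± 0.15). Of the 3 after it, MGA2 was not called, and LYS1 (0.49 ± 0.07) rose and YIR035C (-0.68 ± 0.11) fell in WT.

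**Figure D4:**
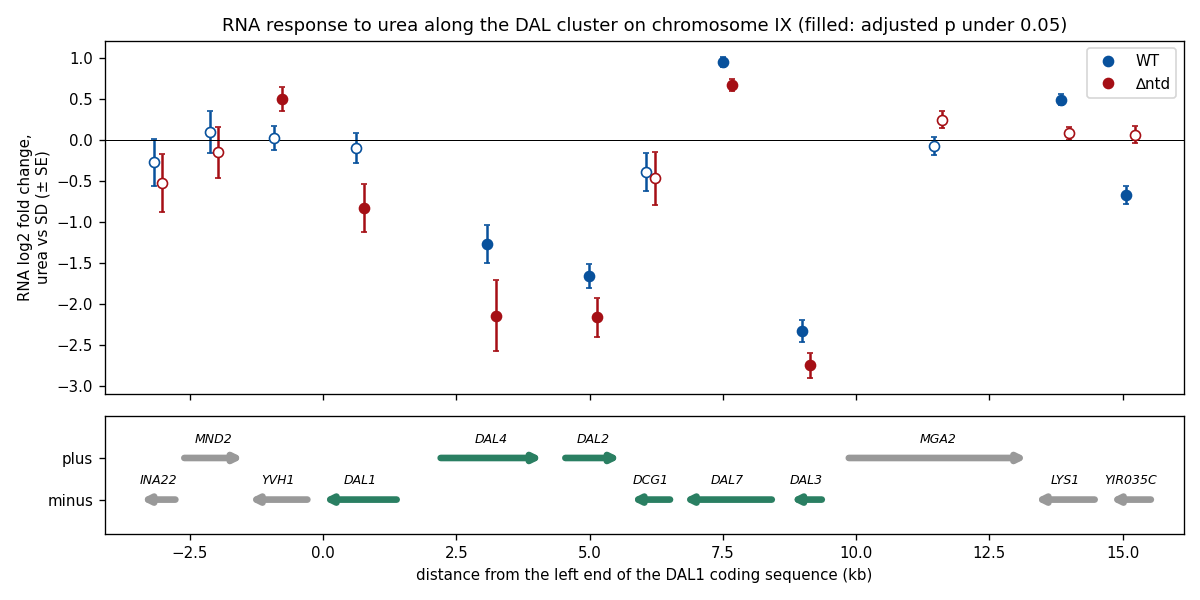
RNA log2 fold change (urea against SD, with standard error) of the genes of the DAL cluster and 3 neighbours on each side, placed by distance in kb from the left end of the DAL1 coding sequence. Blue is WT, red is ∆ntd, filled points have an adjusted p under 0.05, and arrows below show the genes (green in the cluster, grey outside). DAL7 is at 0.95 in WT, between DCG1 at -0.40 and DAL3 at -2.33.

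Across the 8 RNAseq libraries the members fell into those that followed DUR1,2 and those that ran against it, as log2(CPM + 1). DUR3 had r = 0.986 with DUR1,2 and DAL7 had 0.806, while DAL3 had -0.983, DAL5 -0.853, DAL2 -0.722 and DAL4 -0.604. DAL1 had -0.202 and was closest to DAL4. DAL2 and DAL4 had r = 0.938 with each other. These are descriptions over 4 groups of 2 cultures that share libraries and depth. The genes whose RNA was most like the mean centred profile of the 8 were TRX2 (r = 0.996), ODC2 (0.995), SAC1 (0.995), GDH1 (0.993) and PGM2 (0.991). GDH1, the ammonium-assimilating glutamate dehydrogenase, went from 4710 and 4780 CPM in WT in SD to 1840 and 1950 with urea, and was at 1880 and 1690 in ∆ntd in SD and 537 and 602 with urea. The mean profile mixes genes that moved in opposite directions, and by Spearman's rho none of these 5 stayed among the first 5.

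Among the regulators of the pathway DAL80 had the largest change. In WT with urea 3 of the 8 listed genes (7 regulators and DCG1) fell in RNA and the other 5 did not pass, where 12.4% of all genes were called lower. DAL80, a GATA repressor that is itself under the control of Gln3, went from 130.7 and 139.6 CPM to 2.70 and 4.29, that is from 411 and 419 reads to 8 and 19. In ∆ntd it went from 70.8 and 65.6 to 2.06 and 3.94. GAT1, a GATA activator, went from 79.8 and 83.3 to 30.3 and 38.4 in WT (log2 change -1.22, adjusted p = 2.12e-09) and fell by 0.94 in ∆ntd. The repressor gene GZF3 fell by 0.46 in WT.

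GLN3, URE2, DAL81 and DAL82 did not pass for the RNA response to urea in either strain. Their changes in WT were -0.09 for GLN3, whose product activates the pathway, 0.27 for URE2, whose product holds Gln3 in the cytoplasm, 0.00 for DAL81 and -0.35 for DAL82. In footprints in WT, 4 of the 8 listed genes were called lower with urea, where 4.48% of all genes were. Among them, footprints on DAL82, the induction factor with the lowest count, went from 8.45 and 7.08 CPM to 3.10 and 4.62 (log2 change -1.06, adjusted p = 0.0424). The values with urea rest on 15 and 14 footprints, and this call was not refitted under the other settings. Between strains in SD, where 36.8% of all genes were called, 19.3% lower, RNA of DAL80 (-0.98) and DCG1 (-0.66) was lower in ∆ntd. RNA of GAT1 (0.37), GLN3 (0.47), URE2 (0.47) and DAL82 (0.56) was higher.

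A list of 13 other genes for the use of nitrogen sources gave the surroundings of the pathway. In WT with urea 9 of the 13 fell in RNA and 1 rose, where 12.4% of all genes were called lower and 16.1% higher. The largest fall was that of the proline permease gene PUT4 (log2 change -4.19, adjusted p = 1.72e-20), and the rise was that of CAR2 (2.81, adjusted p = 4.46e-19), ornithine transaminase of arginine breakdown. In ∆ntd the counts were again 9 and 1, against 12.8% and 13.4% of all genes, with the general amino acid permease gene GAP1 at -4.24 and CAR2 at 2.44. In SD, 7 of the 13 were lower in ∆ntd and 1 higher (36.8% of all genes were called, 19.3% lower), from CPS1, a vacuolar carboxypeptidase gene, at -1.76 to the ammonium permease gene MEP3 at 0.68. With urea 7 were lower and 2 higher (43.9% of all genes were called, 22.5% lower), from CAR2 at -1.52 to the proline oxidase gene PUT1 at 1.90. For the difference between the responses 3 were higher and 3 lower (4.37% and 6.07% of all genes), from the GABA permease gene UGA4 at -1.97 to PUT1 at 2.36.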

How the data were processed

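Counts of uniquely mapped reads per transcript, not normalized, were deposited by the authors for 16 libraries. Per the methods and submitters' notes, the authors trimmed reads with Cutadapt, removed non-coding RNA reads with Bowtie, aligned the rest to the SGD transcriptome (sacCer3) and counted with Ribocount. The part of the transcript counted was not given in the sources used here. The authors' own fold changes and false discovery rates in the table were not used. Of 6692 genes 378 had no count, and 5988 matched the R64 annotation.

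Counts were fitted in R 4.3.3 with edgeR 4.0.16 (filterByExpr, TMM within each assay, glmQLFit and glmQLFTest, a mean for each group, prior count 0.125), for 5486 genes in RNAseq, 5286 in Riboseq and 5251 in TE, the TE change being Riboseq minus RNAseq in 1 fit of 16 libraries. All 8 members passed the low-count filter in each. Adjusted p-values are over all genes of a fit. Each gene has 1 estimate of the spread for all groups, so SEs and p-values in Riboseq and TE do not measure the wider spread of ∆ntd with urea. Alternatives were RLE factors, library totals, no filter, at least 10 counts in every library, DESeq2 1.42.0, the compared groups alone, limma 3.58.1 voom with a variance for each group, a replicate block, and leaving out each culture. The scripts were tested on simulated data. Separate cultures are the replicates. Both libraries of a culture came from 1 extract, which pairs them, although their deviations correlated at only -0.0263 to 0.0285. Same-numbered cultures of different groups are not labelled as pairs and were not paired in the main fit. Their deviations correlated at -0.0263 to 0.0413 in RNAseq and -0.358 to 0.0631 in Riboseq. Whether they shared a batch was not tested.

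The members and lists were chosen with earlier results of these data known. Named genes are the 8 members, 8 genes of regulators and DCG1, the relatives MLS1, FUR4 and FUI1, the extremes of 13 nitrogen genes, the 5 genes most like the members' mean RNA profile, and TIF3. Cluster neighbours were added after their values were seen. Libraries carry no molecular identifiers that the sources mention, so counting error alone understates the spread.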

Additional observations from a re-analysis of the deposited data

Results flagged for a closer look

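The response to urea differed between the strains, by the test of the difference itself, for 2 of the 8 genes in RNA and 6 in footprints, where 10.4% and 8.36% of all genes were called. In footprints most or all of the 6 calls were lost when a culture of WT, or of ∆ntd in SD, was left out. The number called over all genes also moved widely with the culture left out. In RNA the ∆ntd response minus the WT response was 2.10 on the log2 scale for DAL5 and -0.56 for DUR3. In footprints it was 1.54 for DAL5, -2.39 for DAL4, -1.97 for DAL1, -1.65 for DUR3, -0.90 for DAL2 and -0.65 for DAL7. All cultures with urea lay to 1 side of those in SD for DAL5 and DUR3 in both strains and both assays. Footprints on DAL1 were at 16.4 and 15.2 CPM in WT in SD against 18.0 and 20.1 with urea. In ∆ntd they were at 15.7 and 13.8 CPM, against 4.61 and 4.38 with urea. The wide spread of the Riboseq cultures of ∆ntd with urea (SD 0.506) enters each footprint difference, and its part in them was not tested.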

How the results depend on the processing

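Of the 66 calls for members, 41 held in every setting in which the gene was tested, 23 of 29 in RNA, 18 of 31 in footprints and 0 of 6 in TE. Where a value or call moved, the cause was not tested. With library totals in place of TMM factors, 7 directions turned. DUR1,2 RNA between strains went to 0.05 in SD and 0.00 with urea, DAL3 RNA with urea to 0.14, DAL7 footprints in response to urea in ∆ntd to -0.03, TE between strains in SD to -0.12 for DAL7 and -0.06 for DAL5, and the difference in TE response of DAL3 to -0.24. TE of DUR1,2 between strains in SD was 0.02 with RLE factors, 0.01 with DESeq2 and 0.02 with the compared groups alone. Leaving out 1 culture turned the sign of values that were not called, which ranged from -0.25 to 0.08 for DAL1 RNA in response to urea in WT, from -0.01 to 0.29 for DUR3 RNA in SD, from -0.05 to 0.36 for DAL5 RNA and from -0.69 to 0.19 for DAL5 footprints between strains with urea, and from -0.73 to 0.16 for the difference in footprint response of DAL3. In TE the ranges were -0.03 to 0.01 for DUR1,2 between strains in SD, -0.73 to 0.54 for DAL2 between strains with urea, and -1.04 to 0.23 for DAL2 and -0.18 to 0.41 for DAL3 in the difference between responses.

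The number of members called also moved. In TE, for urea in WT, it was 1 with library totals, no low-count filter, DESeq2 or the replicate block and 2 with the compared groups alone or voom, against 0. For urea in ∆ntd it was 6 with library totals, 0 with the compared groups alone and 1 with voom, against 2. Between strains in SD it was 1 with library totals, at least 10 counts in every library, DESeq2 or the block and 4 with the compared groups alone, against 2. With urea it was 6 with library totals and 1 with the compared groups alone, against 2. For the difference between responses it was 2 with library totals and 1 with DESeq2 or voom, against 0. In footprints it was 2 with library totals in SD, against 4, and 3 with the block for the difference between responses, against 6. In RNA it was 1 with DESeq2 for that difference, against 2. Leaving out each culture gave 1 to 2 members for the difference in RNA, 1 to 6 for footprints between strains in SD and 0 to 7 for the difference in footprints. In TE it gave 0 to 2 for urea in WT, 1 to 3 for urea in ∆ntd, 0 to 4 between strains in SD, 0 to 3 with urea and 0 to 2 for the difference.

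Counts over all genes moved more. In footprints the 487 calls for urea in WT ranged from 97 to 1650 when a culture was left out, the 1499 in ∆ntd from 217 to 3090, the 487 between strains in SD from 44 to 2058, the 1741 with urea from 701 to 2996, and the 442 for the difference from 12 to 2589. In TE these counts were 7 (0 to 311), 607 (11 to 2087), 341 (17 to 1227), 1333 (570 to 2341 over all settings) and 32 (0 to 1514). The lowest counts in RNA over the settings were 924 against 1565 for urea in WT, 853 against 1440 in ∆ntd, 1299 against 2018 between strains in SD and 260 against 573 for the difference. With library totals the genes called higher and lower in RNA went from 885 and 680 to 509 and 1191 for urea in WT, from 737 and 703 to 515 and 987 in ∆ntd, from 961 and 1057 to 2550 and 431 between strains in SD, from 1178 and 1232 to 2760 and 519 with urea and from 240 and 333 to 310 and 257 for the difference. In footprints they went from 250 and 237 to 150 and 321 for urea in WT, from 892 and 607 to 320 and 2080 in ∆ntd, from 945 and 796 to 533 and 1348 (between strains with urea) and from 260 and 182 to 110 and 406 (the difference). In TE they went from 383 and 224 to 125 and 895 for urea in ∆ntd, from 168 and 173 to 82 and 491 in SD, from 805 and 528 to 215 and 2126 with urea and from 14 and 18 to 5 and 136 for the difference. With the replicate block, adjusted p went from 0.0532 to 0.0226 for TE of DAL5 in WT, and the calls for DAL4 footprints with urea in WT (0.0670) and for TE of DAL4 in SD (0.0621) were lost. Reads limit the low genes, since RNA of DAL4 in ∆ntd with urea was 7 and 4 reads.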
